A study of Arabidopsis thaliana with 12 samples.

Results

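The 10 genes described here govern how Arabidopsis thaliana roots take up and store iron, out of 37138 gene loci in the tables. They were chosen by locus code: the transcription factor genes FIT (AT2G28160), BHLH38 (AT3G56970), BHLH39 (AT3G56980), BHLH100 (AT2G41240), BHLH101 (AT5G04150) and PYE (AT3G47640), the ubiquitin ligase gene BTS (AT3G18290), the uptake genes IRT1 (AT4G19690) and FRO2 (AT1G01580), and the ferritin gene FER1 (AT5G01600). RNA-seq was made from root tips of 0.2 cm. Col-0, the wild type, was compared with the scl5 scl21 pat1 triple mutant, which carries mutations in 3 genes for GRAS-family regulators. Seedlings grew on nylon mesh over 1/2 MS medium, with about 100 seeds per sample, and on day 7 after sowing were transferred either to plain medium, the control, or onto bleomycin, which cuts DNA strands, at 0.5 µg/ml for 24 h. Each of the 4 groups (Col-0 control, Col-0 bleomycin, triple mutant control and triple mutant bleomycin) held 3 biological replicates, and each sample pooled tips of many seedlings. Whether the triple mutant is 1 line or several, and which alleles it carries, is not given in the sources used here.

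Iron in soil is mostly oxidised and poorly soluble. Arabidopsis roots acidify their surroundings, release coumarins that mobilise iron, reduce ferric iron at the root surface with FRO2 and import ferrous iron with the transporter IRT1. FIT forms dimers with the subgroup Ib proteins bHLH38, bHLH39, bHLH100 and bHLH101, and these dimers switch on IRT1 and FRO2, mainly in the epidermis of the differentiated root behind the tip. The Ib genes are themselves switched on under iron shortage by subgroup IVc bHLH factors. BTS, an iron-binding ubiquitin ligase, lowers the IVc factors, and PYE represses several iron homeostasis genes. Ferritins store iron inside plastids, and FER1 is known to rise when iron is in excess.

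The letters before the genes are shown for BHLH38, BHLH39, BHLH100 and BTS, regulators with the motif marked below, and for IRT1. The level of IRT1, among the 10, varied most like that of BHLH38. The letters of the other genes, among them FIT with 1 such motif, are not shown. The windows are the 250 bases before each annotated gene start in RefSeq TAIR10.1, written 5′ to 3′ on the gene's strand. Capitals mark every E-box, CANNTG, the short motif that bHLH proteins bind. An E-box reads as an E-box on both strands, and the G-box, CACGTG, is one kind of E-box. The windows lie at chr3:21085246-21085495 (minus strand), chr3:21087711-21087960 (minus), chr2:17199455-17199704 (minus), chr3:6273716-6273965 (plus) and chr4:10707094-10707343 (plus), and none overlapped another annotated gene.
BHLH38: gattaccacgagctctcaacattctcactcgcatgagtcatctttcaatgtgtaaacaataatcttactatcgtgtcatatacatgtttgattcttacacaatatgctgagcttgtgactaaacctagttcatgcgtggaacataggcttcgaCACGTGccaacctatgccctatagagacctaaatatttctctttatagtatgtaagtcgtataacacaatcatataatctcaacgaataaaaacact
BHLH39: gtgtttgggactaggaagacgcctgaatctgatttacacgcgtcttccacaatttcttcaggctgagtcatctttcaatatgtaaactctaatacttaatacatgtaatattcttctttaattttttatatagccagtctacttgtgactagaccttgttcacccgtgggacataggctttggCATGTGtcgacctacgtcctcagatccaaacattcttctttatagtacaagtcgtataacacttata
BHLH100: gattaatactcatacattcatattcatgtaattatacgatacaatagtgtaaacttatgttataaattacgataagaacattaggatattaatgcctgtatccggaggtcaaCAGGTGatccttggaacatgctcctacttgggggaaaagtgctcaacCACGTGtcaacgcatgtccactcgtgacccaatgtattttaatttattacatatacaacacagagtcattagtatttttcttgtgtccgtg
BTS: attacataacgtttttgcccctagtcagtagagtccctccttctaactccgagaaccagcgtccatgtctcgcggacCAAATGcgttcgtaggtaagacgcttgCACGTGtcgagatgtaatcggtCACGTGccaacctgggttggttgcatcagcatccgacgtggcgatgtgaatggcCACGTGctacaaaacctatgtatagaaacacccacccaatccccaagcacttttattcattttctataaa
IRT1: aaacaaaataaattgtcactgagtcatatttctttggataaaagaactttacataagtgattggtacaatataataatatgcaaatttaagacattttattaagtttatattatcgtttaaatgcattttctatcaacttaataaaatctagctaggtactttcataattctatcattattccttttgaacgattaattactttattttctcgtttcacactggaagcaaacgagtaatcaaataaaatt

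BHLH38 and BHLH100 each held 1 G-box, starting 97 and 91 bases before the gene. BTS held 3 G-boxes, starting 146, 124 and 70 bases before the gene. BHLH39, which lies 1144 bases from BHLH38 on the same strand, held CATGTG at 67 bases in place of a G-box. The longest run of letters shared by the BHLH38 and BHLH39 windows was TGAGTCATCTTTCAAT, 16 bases long and starting 217 and 187 bases before the 2 genes. Of the 10 genes, 3 held a G-box in the window, against 6.49% of 27443 windows of the same length, and 5 held an E-box, against 55.3%. FIT held 1 E-box, and IRT1, FRO2, PYE, BHLH101 and FER1 held none.

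The genes fell into 2 tiers of abundance in these tips. Levels between genes are compared as TPM, transcript abundance corrected for length. FER1 had the highest mean TPM over the 12 libraries, 94.7, followed by FIT at 41.5, BTS at 19.1 and PYE at 10.8. These placed FER1 at percentile 92.2 of the tested genes, FIT at 82.0, BTS at 64.7 and PYE at 49.5. The order of these 4 was the same in all 4 groups, and the ranges of neighbours overlapped only for FER1 and FIT in Col-0 bleomycin.

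The lower tier held the Ib factors and the uptake genes. Mean TPM was 3.03 for BHLH39, 2.54 for FRO2, 1.27 for IRT1, 1.15 for BHLH101, 0.42 for BHLH38 and 0.07 for BHLH100. Neighbours in this tier mostly overlapped within a group, so most of their order is not resolved. Without overlap, FRO2 lay above BHLH101 in both triple mutant groups and BHLH101 above BHLH38 in Col-0 bleomycin. BHLH38 likewise lay above BHLH100 in triple mutant bleomycin. IRT1 was at percentile 13.8 of the tested genes. BHLH100 had 22 reads in all 12 libraries together and none in 9 of them. A total of 9 of the 10 genes passed the filter on low counts, and BHLH100 was not tested.

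The totals were 36.3 to 40.9 M reads per library, so 3 reads, the limit that a count of 0 allows, equalled 0.0735 to 0.0857 CPM (reads per 1 M of the library, scaled with TMM factors). Such limits cover counting error only. As a check of the genotype labels, SCL21 had 0 reads in all 6 triple mutant libraries, and SCL5 had 3 reads in all there, against 4233 in Col-0 control. PAT1 was lower but present, with log2 changes of -1.44 on control medium and -1.62 after bleomycin. The library triple mutant control 3 stood apart from the others on the first 2 principal components. That library had 0 reads for 381 genes that reached a set minimum of reads in every other library. Counts of calls without it are given where they bear on a result.

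**Figure D1:**
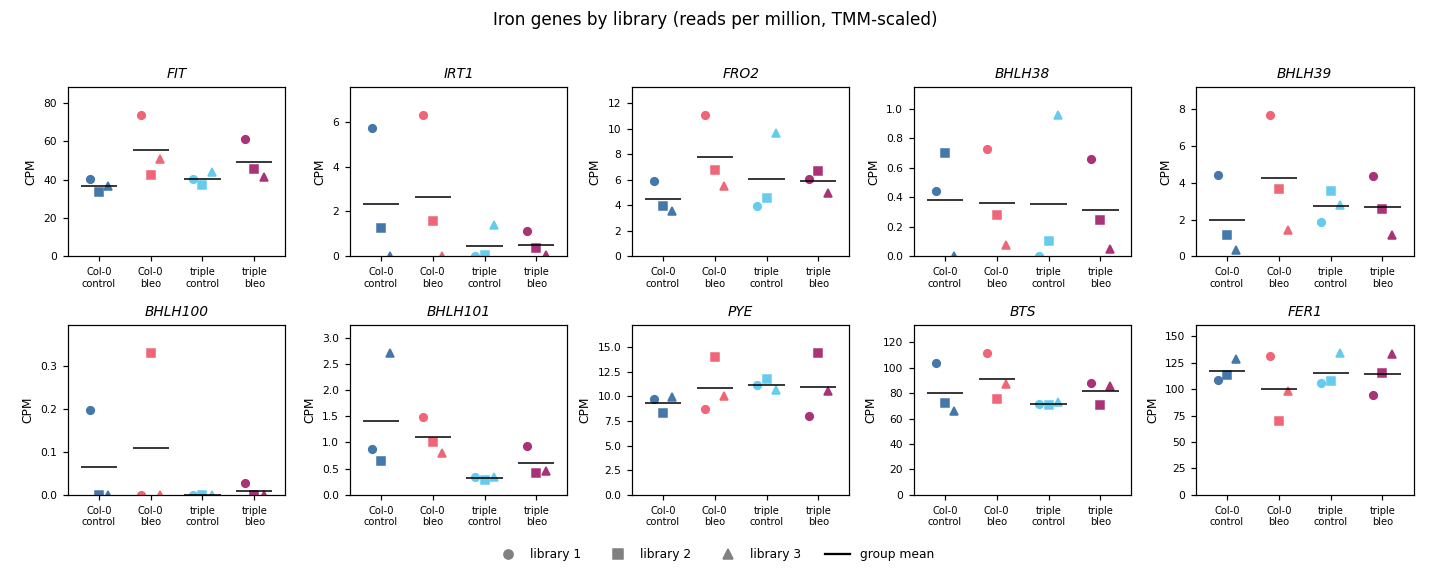
Levels of the 10 iron genes in each of the 12 libraries, in CPM on linear axes that start at 0, with 1 panel per gene. Points are libraries (circle, square and triangle for numbers 1, 2 and 3), lines are group means, "triple" is the triple mutant and "bleo" is bleomycin. FIT is the gene whose Col-0 control libraries (33.4 to 40.5) all lie below the Col-0 bleomycin libraries (42.6 to 73.7), while IRT1 runs from 0 to 6.28 CPM with both ends of that range in Col-0.

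No iron gene of the 10 was called after bleomycin in Col-0, and FIT came nearest. A gene is called when its adjusted p in edgeR's quasi-likelihood test over all 12 libraries is under 0.05 (Benjamini-Hochberg over 21561 genes). In Col-0 0 of 9 tested iron genes were called, where 6.75% of all tested genes were. At an unadjusted p under 0.05 there were 2 of 9, FIT and FRO2, against 5236 of 21561 tested genes. The same comparison with DESeq2 called 1 of the 9, FIT, and limma voom called 0. Group ranges that did not overlap were found for 1 of 9, FIT, against 30% of all tested genes in either direction.

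FIT, the central activator of iron uptake, had 40.5, 33.4 and 37.0 CPM in the Col-0 control libraries and 73.7, 42.6 and 50.9 CPM in Col-0 bleomycin. The lowest bleomycin library lay just above the highest control library, and Col-0 bleomycin 1 stood well above the other two. Group means were 36.9 ± 3.57 and 55.7 ± 16.1 CPM (SD, n = 3), a log2 change of 0.59 with a standard error of 0.19 and a 95% interval of 0.18 to 1.01. The adjusted p of 0.0813 was above the threshold. Over 18 alternative settings the log2 change stayed positive, from 0.33 to 0.75, with adjusted p from 0.0170 to 0.314. It passed in 3 of the 18. These were DESeq2 (adjusted p = 0.0327), the fit without Col-0 bleomycin 2 (0.0478) and the fit with replicate number as a block (0.0170). The lowest log2 change was the one without Col-0 bleomycin 1.

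FIT in the triple mutant had 40.1, 37.1 and 43.8 CPM on control medium and 61.0, 45.6 and 41.4 CPM after bleomycin. These ranges overlapped, through the bleomycin library at 41.4. The log2 change was 0.29 (SE 0.19, adjusted p = 0.375). The difference between the genotypes in this response, the interaction, was -0.30 on the log2 scale with a 95% interval of -0.89 to 0.28, so the smaller value in the mutant was not resolved from that in Col-0.

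Fewer cells of a type and less RNA per cell cannot be told apart in such bulk samples. Of the epidermis and endodermis marker sums, only the epidermis sum in Col-0 had control and bleomycin ranges that did not overlap. The summed level of 10 epidermis and root hair markers ran from 456 to 601 CPM in the Col-0 control libraries and from 672 to 739 CPM in Col-0 bleomycin, with no marker at 0. For the triple mutant it ran from 425 to 653 CPM and from 591 to 819 CPM. Of the 10 markers 1 was called in Col-0 and 2 in the triple mutant, where 6.75% and 8.01% of all tested genes were. In each genotype 8 of the 10 estimates were above 0 and 2 below. LRX1, a root hair wall gene, rose in Col-0 (log2 0.71, adjusted p = 0.0498) and in the triple mutant (0.76, adjusted p = 0.0349). RHD2, a root hair NADPH oxidase gene, rose in the triple mutant (log2 0.44, adjusted p = 0.0463). WER, a gene for an epidermal fate regulator, chosen after its values were seen, was below 0 in both (log2 -0.28, adjusted p = 0.414, and -0.23, adjusted p = 0.484). The 7 endodermis markers summed to 199 to 509 CPM in the Col-0 control libraries and 342 to 671 CPM in Col-0 bleomycin, and to 253 to 441 and 413 to 693 CPM in the triple mutant, with at most 1 marker at 0 in a library and none called.

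Root cap, meristem and photosynthesis markers were summed in the same way. Of the 3 root cap markers 1 was called in Col-0, the NAC factor gene BRN2 (log2 0.60, adjusted p = 0.0409), and 0 in the triple mutant. SMB, another NAC factor gene of the 3, had log2 changes of -0.21 (adjusted p = 0.587) and -0.04 (adjusted p = 0.919). The summed level of the 3 ran from 55.7 to 73.7 CPM in control and from 70.0 to 89.7 CPM in bleomycin. That sum in the triple mutant ran from 58.0 to 79.6 and from 66.8 to 88.6 CPM. The 5 meristem and niche markers summed to 142 to 169 CPM in the Col-0 control libraries and 131 to 137 CPM in Col-0 bleomycin. Their sums in the triple mutant were 142 to 155 and 120 to 140 CPM, and none was called. In both genotypes the ranges of these sums did not overlap, with bleomycin below control. In each genotype 4 of the 5 estimates were below 0 and 1 above. The 1 above was WOX5, with log2 changes of 1.84 (adjusted p = 0.106) in Col-0 and 1.70 (adjusted p = 0.130) in the triple mutant. Photosynthesis markers summed to at most 26.2 CPM in any library, with up to 3 of the 5 at 0. The part of these markers in the iron gene values was not tested.

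The uptake genes split in how steady they were. FRO2, the ferric reductase gene, had 5.89, 3.98 and 3.58 CPM in the Col-0 control libraries and 11.1, 6.76 and 5.53 CPM in Col-0 bleomycin. The lowest bleomycin library lay under the highest control library. The log2 change was 0.80 (SE 0.36, unadjusted p = 0.0480, adjusted p = 0.202). Triple mutant libraries had 3.97, 4.61 and 9.67 CPM of FRO2 on control medium and 6.09, 6.72 and 4.95 CPM after bleomycin, a log2 change of -0.04 (SE 0.36). The highest of these 6 values was in triple mutant control 3, and without that library the log2 change was 0.45.

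IRT1, the main iron importer gene, ranged more widely within groups than between them. It had 5.70, 1.26 and 0 CPM in the Col-0 control libraries and 6.28, 1.59 and 0 CPM in Col-0 bleomycin, which were 232, 47 and 0 reads and 251, 63 and 0 reads. The triple mutant libraries had 0, 0.05 and 1.40 CPM on control medium and 1.15, 0.37 and 0.05 CPM after bleomycin. All groups overlapped. The log2 change after bleomycin was 0.18 in Col-0 with a 95% interval of -3.60 to 3.95, and 0.10 in the triple mutant with an interval of -3.88 to 4.09. At this spread even large changes of IRT1 were not detectable in this fit, which does not use the replicate numbers. Of the 18 alternative settings, among them a fit with replicate number as a block, 0 called IRT1 in either genotype.

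The Ib regulators were low, and none was called. BHLH39 had 4.42, 1.18 and 0.35 CPM in the Col-0 control libraries and 7.66, 3.64 and 1.45 CPM in Col-0 bleomycin, overlapping groups with a log2 change of 1.10 (SE 0.78, adjusted p = 0.424). Triple mutant levels were 1.89, 3.54 and 2.77 CPM and then 4.34, 2.55 and 1.18 CPM, with a log2 change of -0.02 (SE 0.78). BHLH38 had 0.44, 0.70 and 0 CPM in the Col-0 control libraries, 0.73, 0.28 and 0.08 CPM in Col-0 bleomycin, 0, 0.10 and 0.96 CPM in triple mutant control and 0.66, 0.25 and 0.05 CPM in triple mutant bleomycin. Those are at most 37 reads in a library, and the groups overlapped throughout. BHLH100 had 8 reads in Col-0 control 1, 13 in Col-0 bleomycin 2, 1 in triple mutant bleomycin 1 and 0 in the other 9 libraries.

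BHLH101 had 0.88, 0.65 and 2.70 CPM in the Col-0 control libraries and 1.48, 1.01 and 0.80 CPM in Col-0 bleomycin, a log2 change of -0.36 (SE 0.67) that turned to 0.52 without Col-0 control 3. In the triple mutant it had 0.34, 0.29 and 0.34 CPM on control medium and 0.93, 0.42 and 0.45 CPM after bleomycin. These triple mutant groups did not overlap, yet the log2 change of 0.89 (SE 0.70) had an adjusted p of 0.456. BHLH101 was the 1 of 9 genes with no overlap in the triple mutant, where 29.9% of all tested genes had none.

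After bleomycin in the triple mutant 0 of 9 iron genes were called, against 8.01% of all tested genes. An unadjusted p under 0.05 was found for 0 of 9, against 5403 of 21561 tested genes. DESeq2 and limma voom called 0 as well. Without triple mutant control 3 the count was again 0. The median log2 change of the 9 was -0.02 in the triple mutant and 0.18 in Col-0, beside 0.03 and 0.01 over all tested genes.

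The negative regulators and the ferritin gene FER1 were called in neither genotype. BTS had 103, 71.9 and 66.1 CPM in the Col-0 control libraries, 111, 75.0 and 86.9 CPM in Col-0 bleomycin, 71.8, 71.0 and 72.6 CPM in triple mutant control and 88.2, 70.8 and 85.6 CPM in triple mutant bleomycin. Its log2 changes were 0.18 in both genotypes, with 95% intervals of -0.20 to 0.56 and -0.19 to 0.56. PYE had 9.77, 8.26 and 9.90 CPM in the Col-0 control libraries and 8.66, 14.0 and 10.01 CPM in Col-0 bleomycin, a log2 change of 0.23 with an interval of -0.26 to 0.71. It had 11.2, 11.8 and 10.6 CPM in triple mutant control and 8.04, 14.3 and 10.5 CPM in triple mutant bleomycin, a log2 change of -0.03.

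FER1 had 109, 113 and 129 CPM in the Col-0 control libraries and 131, 70.0 and 98.4 CPM in Col-0 bleomycin. The bleomycin libraries lay on both sides of the control libraries, with a log2 change of -0.23 and an interval of -0.65 to 0.20. Triple mutant control had 106, 107 and 134 CPM and triple mutant bleomycin had 94.0, 115 and 133 CPM, with a log2 change of -0.02. For BTS, PYE and FER1 the intervals in both genotypes thus exclude a 2-fold change in either direction.

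**Figure D2:**
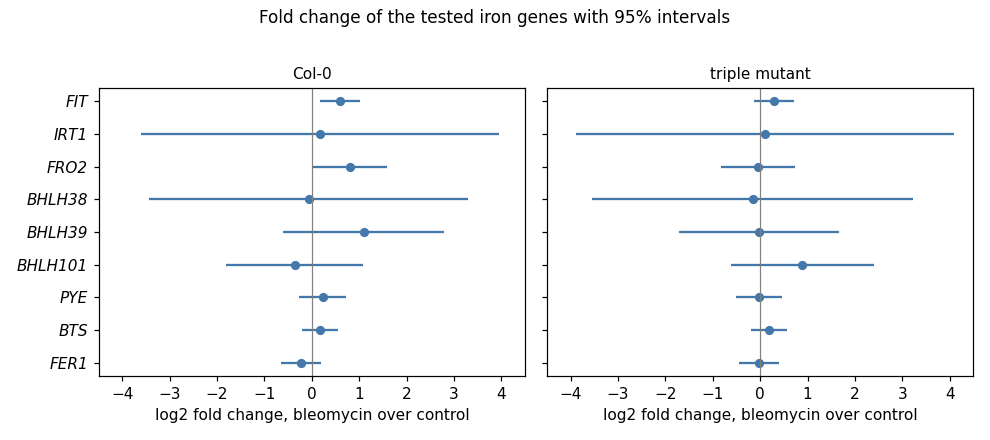
Log2 fold change of bleomycin over control for the 9 tested iron genes in Col-0 (left) and in the triple mutant (right). Points are edgeR estimates and bars are approximate 95% intervals. The bars of IRT1 and BHLH38 span more than 6 log2 units, those of FIT, PYE, BTS and FER1 about 1 or less, and the FIT and FRO2 bars in Col-0 lie above 0.

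Between the genotypes 0 of 9 iron genes were called on control medium and 0 of 9 after bleomycin, where 0.0278% of all tested genes were called in each. With DESeq2 and with limma voom both counts were 0. An unadjusted p under 0.05 was found for 1 of 9 on control medium, BHLH101, against 1034 of 21561 tested genes. After bleomycin it was found for 0 of 9, against 226 of 21561. BHLH101 was 1.41 ± 1.12 CPM in Col-0 and 0.32 ± 0.03 CPM in the triple mutant (SD, n = 3), a log2 difference of -2.12 (SE 0.71, unadjusted p = 0.0104, adjusted p = 0.960). All 3 mutant libraries, with 11 to 13 reads, lay under all 3 Col-0 libraries, with 24 to 107 reads. Over 18 alternative settings this difference ran from -2.46 to -1.24, and none passed the threshold.

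On control medium PYE also had groups that did not overlap, 8.26 to 9.90 CPM in Col-0 and 10.6 to 11.8 CPM in the triple mutant, with a log2 difference of 0.26 (SE 0.23, adjusted p = 0.961). Together with BHLH101 that made 2 of 9 genes without overlap, against 11.2% of all tested genes. After bleomycin 0 of 9 were without overlap, against 5.1%. IRT1 had a fitted difference of -2.25 on control medium with an interval of -6.28 to 1.78, and of -2.33 after bleomycin with an interval of -6.36 to 1.70. The interaction called 0 of 9 iron genes and 0% of all tested genes by edgeR, and 0 of 9 by DESeq2 and by limma voom. None of the 9 iron genes had an unadjusted p under 0.05 for it, against 377 of 21561 tested genes. The size of the interaction was -0.84 for FRO2 with an interval of -1.94 to 0.27 (-0.34 without triple mutant control 3), and 1.25 for BHLH101 with an interval of -0.84 to 3.34.

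IRT1, BHLH38, BHLH39 and FRO2 varied together from library to library. IRT1 was highest in library 1 of Col-0 control, Col-0 bleomycin and triple mutant bleomycin, and in library 3 of triple mutant control. BHLH38 and FRO2 shared the last of these peaks, while BHLH39 was highest in library 2 of that group. Other departures from IRT1 were BHLH38, highest in library 2 of Col-0 control, and FRO2, highest in library 2 of triple mutant bleomycin. Triple mutant control 3 is the library that stood apart. The endodermis and the epidermis marker sums were highest in library 1 of all 4 groups, at 509, 671, 441 and 693 CPM for the endodermis in Col-0 control, Col-0 bleomycin, triple mutant control and triple mutant bleomycin. The part of these markers and of triple mutant control 3 in the shared variation was not tested. Over the 12 libraries, after the group means were taken out of log2 CPM, Pearson's r with IRT1 was 0.90 for BHLH38, 0.87 for BHLH39 and 0.85 for FRO2. It was 0.52 for BTS, 0.48 for FIT, -0.02 for FER1, -0.12 for BHLH101 and -0.19 for PYE. BHLH39 had 0.64 with FRO2 and 0.68 with BTS, and FIT had 0.68 with BTS. These are descriptions across shared libraries, with no test, and low counts weigh on the IRT1 and BHLH38 values. Without removal of group means the genes most like IRT1 were PTM (r = 0.92), AT3G55890 (0.90) and BHLH38 (0.89). Those most like BHLH39 were PORB (0.92), scpl6 (0.92) and APK4 (0.91), and those most like FER1 were FAR1 (0.92), AT2G38430 (0.91) and AT5G38510 (0.91), all over 12 libraries and out of 21561 genes.

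**Figure D3:**
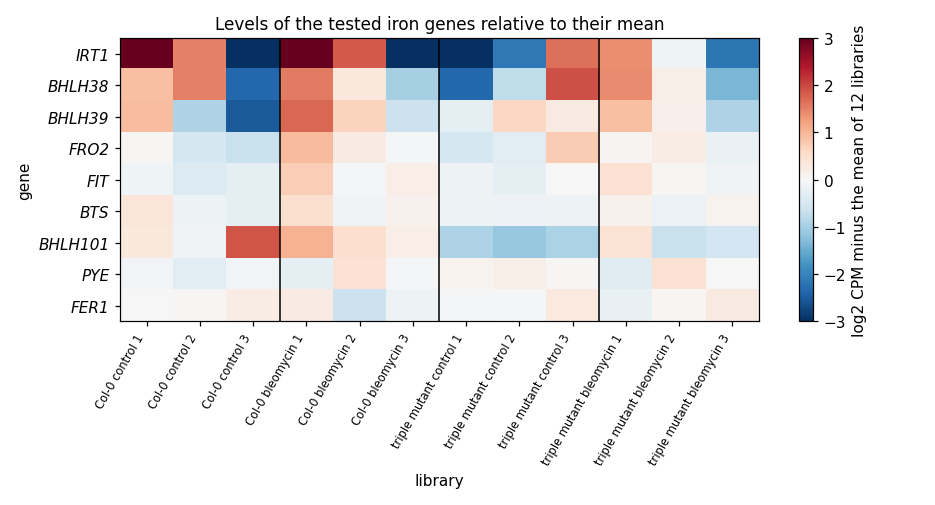
Log2 CPM of the 9 tested iron genes in each of the 12 libraries, minus the gene's mean over the 12, with red above and blue below that mean and colours saturated at 3 log2 units. IRT1, BHLH38 and BHLH39 change colour within each group of 3 libraries, while FER1, PYE and BTS stay pale.

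Transcript forms were estimated separately by Salmon and were less certain than gene totals. FIT reads fell mostly on form 1, and form 2 took 0 to 23.4% of them. Form 2 of FIT was highest in Col-0 bleomycin 1, with 687 estimated reads, then in Col-0 control 1 with 331 and Col-0 bleomycin 3 with 285. PYE was split between form 1 and form 3, each from 0 to 100% of the gene's reads. All PYE reads went to form 3 in triple mutant control 3, the library that stood apart, and all went to form 1 in Col-0 control 1 and triple mutant bleomycin 3. IRT1 reads went to form 2 for 97.3 to 100%, and all FRO2 reads to form 1.

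Among other genes of iron handling, 7 rose after bleomycin in Col-0 and 7 in the triple mutant, and 0 fell in either. This list holds 51 genes, of which 44 passed the filter on low counts. It was chosen with earlier results of these data known, so its counts and medians are descriptions and no test of the list. The share of all tested genes called higher was 4.29% in Col-0 and 4.2% in the triple mutant. Called in either direction were 6.75% and 8.01%. Rises made up 925 of 1455 calls over all genes in Col-0 and 905 of 1727 in the triple mutant. Falls were thus a minority in each genotype, narrowly so in the triple mutant. In Col-0 the called genes were YSL2, YSL3, NAS2, F6'H1, FER2, BHLH115 and BTSL2, and in the triple mutant YSL2, YSL3, NAS2, F6'H1, FER2, BTSL2 and NRAMP3. By group, 3 of 17 tested genes of chelation and transport, 2 of 15 regulators, 1 of 6 acquisition genes and 1 of 6 storage genes rose in Col-0, and 4, 1, 1 and 1 in the triple mutant. The median log2 change of the 44 was 0.49 in Col-0 and 0.31 in the triple mutant, beside 0.01 and 0.03 over all tested genes. In the genotype comparisons and the interaction 0 of 44 were called by edgeR, with 0 at an unadjusted p under 0.05, and limma voom called 0.

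YSL2, a transporter of metals bound to nicotianamine, had 14.6, 7.93 and 7.46 CPM in the Col-0 control libraries and 77.1, 87.0 and 67.6 CPM in Col-0 bleomycin. The groups lay far apart, with a 7.72-fold rise (log2 2.95, SE 0.27, adjusted p = 3.71e-05). The mutant went from 11.96 ± 2.33 to 73.1 ± 17.9 CPM (SD, n = 3), a 6.11-fold rise (log2 2.61, SE 0.27, adjusted p = 0.000127), and the interaction was -0.34 with an interval of -1.11 to 0.44. YSL3, of the same transporter family, rose from 57.4 ± 10.5 to 123 ± 11.6 CPM in Col-0 (log2 1.10, adjusted p = 0.00130) and from 69.5 ± 1.87 to 121 ± 20.3 CPM in the triple mutant (log2 0.79, adjusted p = 0.00920). NAS2, a nicotianamine synthase gene, rose from 3.19 ± 0.50 to 7.07 ± 0.91 CPM in Col-0 (log2 1.15, adjusted p = 0.0196) and from 2.75 ± 0.29 to 7.13 ± 1.73 CPM in the triple mutant (log2 1.37, adjusted p = 0.00838). F6'H1, the enzyme that opens coumarin synthesis, rose from 17.3 ± 3.77 to 41.1 ± 5.498 CPM in Col-0 (log2 1.25, adjusted p = 0.00371) and from 19.5 ± 2.93 to 42.3 ± 9.32 CPM in the triple mutant (log2 1.11, adjusted p = 0.00765).

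The NAS2 call in Col-0 was lost without Col-0 bleomycin 1 (adjusted p = 0.0822), Col-0 control 2 (0.0543) or Col-0 control 3 (0.0864). YSL2, YSL3, F6'H1 and FER2 were called in all 18 alternative settings in both genotypes, and NAS2 and BTSL2 in all 18 in the triple mutant. The count of 7 in Col-0 became 4 without Col-0 control 3 and 12 without Col-0 control 1, and DESeq2 called 11 in the triple mutant. Without triple mutant control 3 the counts were 7 in Col-0 and 6 in the triple mutant. The epidermis marker sums given above were higher after bleomycin in Col-0 and overlapped between the triple mutant groups. The meristem and niche sums were lower after bleomycin in both genotypes. The part of these sums in the rises was not tested.

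**Figure D4:**
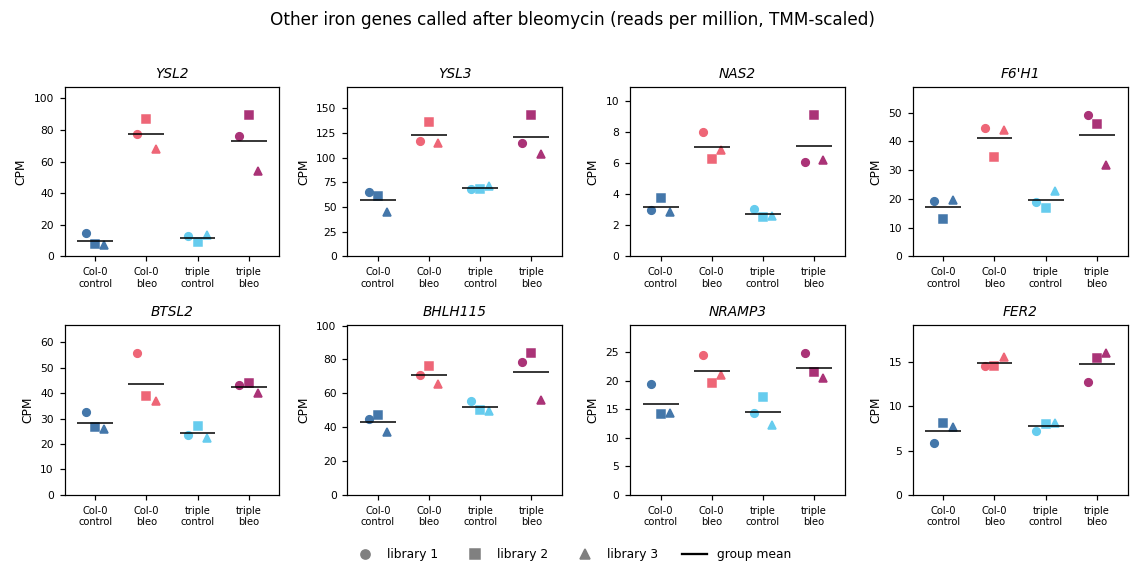
Levels of the 8 other iron genes called after bleomycin in at least 1 genotype, in CPM on linear axes that start at 0, by library (points) with group means (lines); "triple" is the triple mutant and "bleo" is bleomycin. In both genotypes all bleomycin libraries lie above all control libraries for each of the 8 genes, by the widest ratio for YSL2 (7.46 to 14.6 against 67.6 to 87.0 CPM in Col-0).

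Relatives of the regulators were among the called genes. BTSL2, a ubiquitin ligase gene related to BTS, rose from 28.5 ± 3.74 to 43.7 ± 10.4 CPM in Col-0 (SD, n = 3; log2 0.62, adjusted p = 0.0375) and from 24.4 ± 2.43 to 42.4 ± 2.13 CPM in the triple mutant (log2 0.80, adjusted p = 0.0126). Its Col-0 call was lost in 7 of 18 alternatives: with only the groups compared (adjusted p = 0.0907), and without Col-0 bleomycin 1 (0.152), Col-0 control 2 (0.159), Col-0 control 3 (0.156), triple mutant bleomycin 1 (0.0525), triple mutant control 1 (0.0522) or triple mutant control 2 (0.050003). BHLH115, a IVc activator of the Ib genes, rose from 42.9 ± 5.11 to 70.7 ± 5.39 CPM in Col-0 (log2 0.72, adjusted p = 0.0144), a call lost without Col-0 control 3 (0.0774). In the triple mutant it had a log2 change of 0.49 and an adjusted p of 0.0589, and its interaction of -0.23 had an interval of -0.68 to 0.22. NRAMP3, which exports iron from the vacuole, rose in the triple mutant from 14.6 ± 2.44 to 22.2 ± 2.28 CPM (log2 0.61, adjusted p = 0.0462), and 13 of 18 alternatives lost that call, among them the fits without any 1 of Col-0 bleomycin 1, 2 or 3, Col-0 control 2 or 3, and any 1 triple mutant library, with adjusted p up to 0.176.

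The closest relatives of the uptake and storage genes gave mixed values. IRT2, a transporter gene next to IRT1, had 4.20, 2.61 and 2.65 CPM in the Col-0 control libraries and 8.69, 9.01 and 5.55 CPM in Col-0 bleomycin, groups that did not overlap. Its log2 change of 1.30 (SE 0.49) had an adjusted p of 0.126, and in the triple mutant it was 0.90 (SE 0.48, adjusted p = 0.272). FRO1, next to FRO2, had 0 reads in all 12 libraries. FER2, a ferritin gene best known from seeds, rose from 5.82, 8.07 and 7.69 CPM in Col-0 control to 14.6, 14.5 and 15.5 CPM in Col-0 bleomycin (log2 1.05, SE 0.17, adjusted p = 0.00324) and by a log2 change of 0.92 in the triple mutant (adjusted p = 0.00755).

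The other ferritin genes were not called. FER3 had 88.5, 96.6 and 108 CPM in the Col-0 control libraries and 74.2, 60.2 and 85.1 CPM in Col-0 bleomycin, groups that did not overlap, with a log2 change of -0.42 (SE 0.17, adjusted p = 0.153). Its log2 change in the triple mutant was -0.29 (adjusted p = 0.312). FER4 had log2 changes of -0.16 and -0.05 in the 2 genotypes. Reads of such related gene pairs, and of BHLH38 with BHLH39, are divided by estimation where sequences match, so their levels carry that uncertainty.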

How the data were processed

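RNA-seq of 12 root tip libraries was analysed, 3 biological replicates in each of 4 groups. For each library a Salmon table deposited by the authors lists 88971 transcripts, each with a length, an effective length, a TPM value (length-corrected abundance) and an estimated count, per the file headers. The submitters' processing notes name Salmon 0.9.1 and CASAVA, with no role. Not given in the sources used here: the build, the annotation and how Salmon was run. Per the labels' protocols, libraries were made with a NEBNext Ultra kit, named without strand marking.

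Estimated counts deposited by the authors were summed per locus and rounded, without the 30576 transposable element transcripts. Genes were tested with edgeR 4.0.16 in R 4.3.3 (quasi-likelihood F test, TMM scaling, filterByExpr by group, 1 fit over 12 libraries, Benjamini-Hochberg at 0.05), in 5 comparisons. Intervals are approximate, from the log2 change and its standard error. Alternatives were DESeq2 1.42.0, limma 3.58.1 (voom), other scaling, no filter, a replicate block, only the groups compared, and leaving out each library. The test was checked on simulated data with less spread between replicates than in these data, so its power here was not measured. A first limit on recovered 2-fold changes was missed and was replaced after that output was seen.

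The members and lists were chosen with earlier results of these data known. All 10 members were named, with other iron genes that were called (at most 8 a comparison), IRT2, FRO1, FER2, FER3 and FER4, called markers, and the 3 genes most like IRT1, BHLH39 and FER1. All 94 listed loci were found in RefSeq TAIR10.1, from which symbols and upstream letters were read. Lengths equalled RefSeq's for 79.7% of 56554 transcripts found in both, and coordinates are RefSeq's. Replicates differed beyond sampling noise (chi-square over degrees of freedom of at least 18.6), so none was counted as a copy.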

Additional observations from a re-analysis of the deposited data

How the results depend on the processing

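For the 9 tested iron genes in 5 comparisons, 45 log2 changes were each recomputed under up to 18 settings, 800 in all. Of these, 726 kept their direction and their side of the threshold, 71 changed sign, none of them called, and 3 passed only in the alternative, all for FIT in Col-0. The count of the 9 called in Col-0 was 1 with DESeq2, with the replicate block and without Col-0 bleomycin 2, and ranged from 0 to 1 over the fits without 1 library. Replicate numbers were not taken as pairs, since the labels do not say what they mark and 11 of 18 same-number pairs, not all, correlated above 0.1 (range -0.026 to 0.47). Pairs of unlike number ran from -0.30 to 0.14. Whether they mark shared days is not known here, and 12 of 12 libraries correlated best with their own number, a hint from the data and not from the design. With the block FIT in Col-0 had an adjusted p of 0.0170. The block gave 16 other iron genes called in Col-0 and 11 in the triple mutant, where DESeq2 gave 11, and the fits without 1 library gave 4 to 12 in Col-0. Over all genes the block called 3437 in Col-0 and 3633 in the triple mutant, and 10 between genotypes after bleomycin. DESeq2 called 2716 and 2871 with bleomycin, and 24 and 22 between genotypes on control medium and after bleomycin. No filter gave 10 between genotypes after bleomycin, and the fit of only the groups compared gave 825 in Col-0. Without 1 library the counts of all genes ran from 356 (without Col-0 control 2) to 2081 in Col-0, with 434 when Col-0 control 3 was left out, 584 for Col-0 bleomycin 1 and 831 for Col-0 bleomycin 2. They ran from 510 (without triple mutant bleomycin 1) to 1853 in the triple mutant, with 612 and 932 without triple mutant control 2 and 3 and 596 without triple mutant bleomycin 2. Between genotypes after bleomycin they ran from 5 to 10, the latter without triple mutant control 3. The cause was not tested. Sign changes of uncalled values under another tool or scaling were as follows. The BTS interaction was -0.0018 with RLE size factors and with DESeq2, -0.011 with limma voom and -0.0094 with the block. With limma voom BHLH38 was 0.82 in both genotypes after bleomycin and 0.0027 for the interaction, FRO2 was 0.049 in the triple mutant, and the IRT1 interaction was 1.09. With the block IRT1 was -2.05 after bleomycin in the triple mutant and 0.29 between genotypes on control medium, where BHLH38 was 0.83. Leaving out 1 library gave these ranges of log2 change where a sign changed. For bleomycin in Col-0 the ranges were -0.71 to 0.52 for BHLH101, -1.07 to 0.70 for BHLH38, -1.54 to 2.05 for IRT1 and -0.0015 to 0.36 for PYE. For bleomycin in the triple mutant the ranges were -1.24 to 2.498 for BHLH38, -0.55 to 0.33 for BHLH39, -0.15 to 0.10 for FER1, -0.27 to 0.45 for FRO2, -1.20 to 4.11 for IRT1 and -0.28 to 0.15 for PYE. Between genotypes on control medium the ranges were -2.76 to 0.67 for BHLH38, -0.038 to 1.83 for BHLH39, -0.29 to 0.058 for BTS, -0.13 to 0.063 for FER1 and -0.060 to 0.69 for FRO2. Between genotypes after bleomycin the ranges were -1.28 to 0.81 for BHLH38, -1.19 to 0.077 for BHLH39, -0.28 to 0.0088 for BTS, -0.011 to 0.44 for FER1, -0.36 to 0.078 for FIT and -0.23 to 0.23 for PYE. For the interaction the ranges were -1.18 to 2.57 for BHLH38, -0.22 to 0.17 for BTS and -1.95 to 3.93 for IRT1. BHLH100 could be fitted only with no filter, and the interaction has no fit of only the groups compared. BHLH100 had 22 reads in all 12 libraries, too few to pass the filter on low counts.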
